A study of Neogale vison with 6 samples.

Results

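E2F proteins are the transcription factors that switch on the genes for DNA replication when a cell passes from G1 into S phase. The family described here comprises the activators E2F1, E2F2 and E2F3, the repressors E2F4, E2F5 and E2F6, the atypical repressors E2F7 and E2F8, and the DP proteins encoded by TFDP1 and TFDP2. The rule takes genes by name and uses no expression value, and all 10 were found by symbol among the 24526 genes of the count table of mink Mv1Lu cells. All 10 also had enough reads to be tested.

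Each of E2F1 to E2F6 binds DNA as a dimer with a DP protein, whereas E2F7 and E2F8 bind without one. In G1, the pocket proteins pRB (RB1), p107 (RBL1) and p130 (RBL2) hold the E2Fs in check, pRB mainly the activators and p107 and p130 mainly E2F4 and E2F5. Cyclin-dependent kinases of G1 phosphorylate the pocket proteins and release the activators, several of which are themselves transcribed from E2F-driven promoters. E2F6 does not bind pocket proteins and acts with a Polycomb complex, PRC1.6, and E2F7 and E2F8 turn E2F target genes down again after S phase has begun.

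Mv1Lu is a cell line derived from mink lung epithelium. RNA-seq of poly(A) RNA was done on 3 untreated (control) libraries and on 3 libraries from cells under cholesterol depletion (CD). For CD, lovastatin, an inhibitor of HMG-CoA reductase, and mevalonate, the product of that enzyme, were given at 50 μM each for 16 h in medium with 10% LPDS, the lipoprotein-deficient serum. These parts of the treatment were applied together and cannot be told apart here. The labels do not say whether the libraries of a group came from separate cultures, so the tests measure the spread between these libraries, which may be technical.

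The libraries held between 13473820 and 18633764 reads on genes. Reads are given as counts, or as CPM (counts per 1000000 reads on genes, with TMM scaling, mean ± SD of 3 libraries). The groups were compared with the quasi-likelihood test of edgeR over all genes with enough counts, and a difference was called at a false discovery rate (FDR) under 0.05. Of 12148 genes tested, 24.8% were called higher, 22.9% lower and 47.7% in either direction, and for 58.0% the libraries of one group all lay on one side of the other group. Control libraries resembled each other more than CD libraries did, with biological coefficients of variation of 0.0849 and 0.214, respectively. For 1 gene taken alone, the smallest two-sided p that exact permutation of 3 libraries against 3 can give is 0.1. No transcript lengths of the assembly used by the authors were at hand, so levels are compared within a gene and not between genes.

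The labelled cell type was compared with marker genes. Of the epithelial markers found, KRT19 was at 936 CPM in the control and 458 CPM in the CD cells, while CDH1 and EPCAM averaged at most 0.390 CPM in either group. The 5 fibroblast markers together amounted to 303 to 379 CPM in the control and 179 to 228 CPM in the CD libraries, with DCN close to 0. Of the 4 endothelial markers, TEK alone had more than a few reads (215 CPM in control, 102 CPM in CD), and PECAM1, CDH5 and KDR were at or near 0. The leukocyte markers found amounted to 0.434 to 1.05 CPM in the control and 3.10 to 4.18 CPM in the CD libraries, nearly all from CSF1R, with PTPRC at or near 0. The part of these markers in the results on E2F genes was not tested.

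Of the 10 genes, 5 were called lower in CD (E2F1, E2F2, E2F4, E2F8 and TFDP1), 1 was called higher (E2F5), and 4 were not called (E2F3, E2F6, E2F7 and TFDP2). The decreases ranged from 1.75-fold for TFDP1 to 13.7-fold for E2F8. The share of 5 in 10 lower genes stood beside the 22.9% of all tested genes that were lower, and 1 in 10 higher beside 24.8%. For 7 of the 10 genes the groups did not overlap, beside 58.0% of all tested genes. Activators and repressors both included genes called lower, 2 of 3 and 2 of 5, and the only gene called higher was a repressor. In RNA from whole cultures, fewer cells that express a gene and less of its mRNA per cell cannot be told apart.

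**Figure D1:**
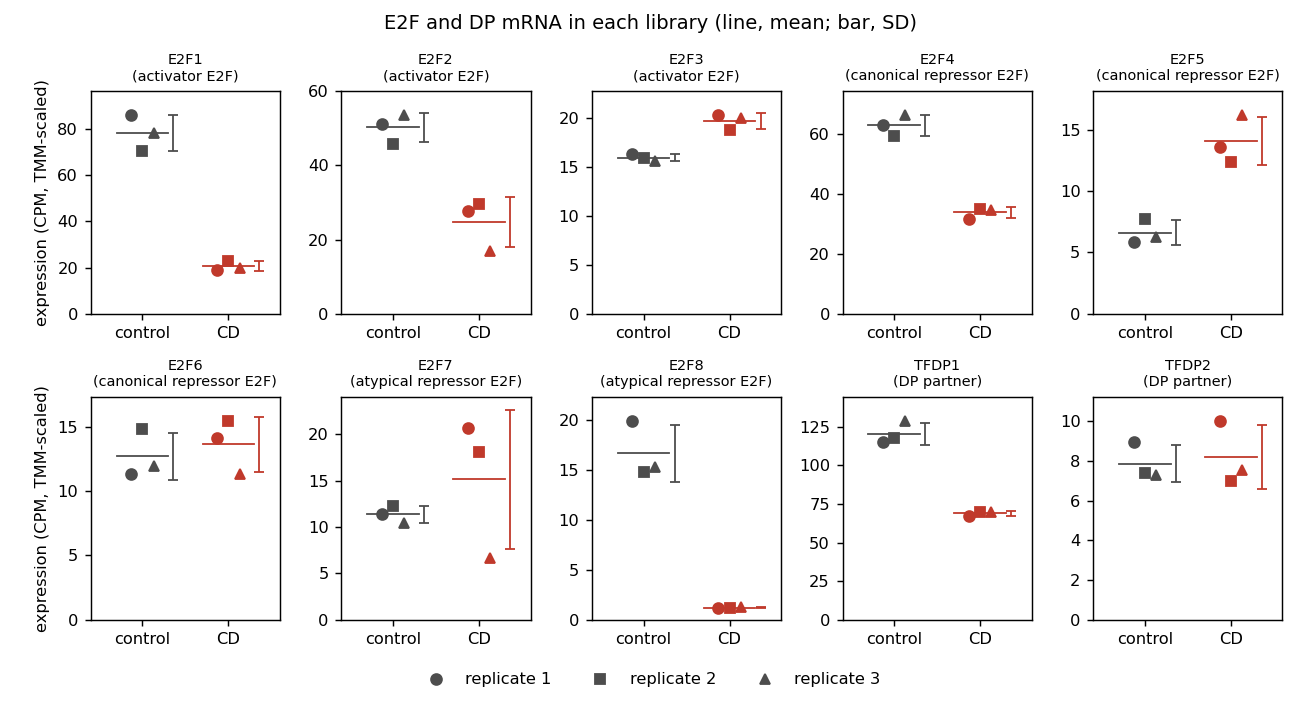
Expression of the 10 E2F and DP genes in each library, in CPM after TMM scaling (y axis, from 0), for the control (grey) and CD (red) groups, with replicates 1 to 3 as circle, square and triangle, the mean as a line and the SD as a bar. E2F8 sits between 14.8 and 19.9 CPM in the control and between 1.17 and 1.30 CPM in the CD libraries, and E2F7 and E2F2 are lower in CD replicate 3 than in the other CD libraries.

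Among the activators, E2F1 changed most. E2F1, the best known driver of S phase entry, was at 86.3, 70.5 and 78.5 CPM in control replicates 1 to 3 and at 18.8, 23.0 and 19.9 CPM in CD replicates 1 to 3. The highest CD library was thus well below the lowest control library. The means were 78.4 ± 7.90 and 20.6 ± 2.18 CPM (SD, n = 3 each), which is 3.81-fold lower or -1.93 ± 0.14 (SE) on the log2 scale (95% interval -2.24 to -1.62; FDR 3.89e-06, edgeR). Leaving out any 1 library kept the value between -2.05 and -1.86.

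E2F2, an activator with a role close to that of E2F1, was at 51.2, 45.9 and 53.7 CPM in the control libraries and at 27.8, 29.6 and 17.0 CPM in the CD libraries. The groups did not overlap, and CD replicate 3 was the lowest library by a wide margin. The decrease was 2.02-fold, with a log2 fold change of -1.02 ± 0.20 (SE; FDR 0.00202, edgeR). It was -0.84 without CD replicate 3 and remained called (FDR 7.95e-08, edgeR).

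E2F3, the third activator, did not share this decrease. It was at 16.3, 15.8 and 15.6 CPM in the control libraries and at 20.3, 18.7 and 20.0 CPM in the CD libraries, so that the groups did not overlap and the CD libraries were the higher ones. The log2 fold change of 0.31 ± 0.14 (SE) was not called (95% interval -0.007 to 0.62; FDR 0.0977, edgeR), and it was not called under any of the alternative settings either. E2F3 has isoforms made from different promoters, which counts per gene do not separate.

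The activators therefore stood in another proportion to each other in CD. For each read on E2F1, the reads on E2F3 numbered 0.189, 0.225 and 0.199 in the control libraries and 1.08, 0.813 and 1.0 in the CD libraries. This pair was picked as the highest and the lowest fold change of the activators, so the ratio is a description without a test. A ratio of this kind depends on the lengths of the transcripts, but its change between libraries does not depend on the scaling.

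The repressors E2F4 and E2F5, which recruit p107 and p130 to promoters in quiescent and G1 cells, changed in opposite directions. E2F4 was at 62.9, 59.2 and 66.3 CPM in the control libraries and at 31.7, 34.8 and 34.7 CPM in the CD libraries. All CD libraries lay near 1 level, well apart from the control libraries. E2F4 fell 1.86-fold (log2 fold change -0.90 ± 0.12, SE; FDR 1.91e-04, edgeR).

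E2F5 was at 5.88, 7.73 and 6.23 CPM in the control libraries and at 13.6, 12.4 and 16.2 CPM in the CD libraries. It was the only one of the 10 genes called higher, and its groups did not overlap. The increase was 2.13-fold, or 1.09 ± 0.19 (SE) on the log2 scale (95% interval 0.66 to 1.51; FDR 0.00111, edgeR), and it lay between 0.94 and 1.21 with 1 library left out. The reads on E2F5 for each read on E2F4 numbered 0.0934, 0.131 and 0.0939 in control libraries but 0.428, 0.356 and 0.467 in CD libraries, again a pair picked for its difference.

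E2F6, the repressor that works without pocket proteins, showed no difference beyond the spread. It was at 11.3, 14.8 and 12.0 CPM in the control libraries and at 14.1, 15.5 and 11.3 CPM in the CD libraries. The groups overlapped, and the log2 fold change was 0.11 (95% interval -0.31 to 0.52; FDR 0.669, edgeR).

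The atypical repressors E2F7 and E2F8 are close relatives, with a pair of DNA-binding domains each, and they often act on the same genes. In CD, E2F8 was called lower and E2F7 was not called. E2F8 was at 19.9, 14.8 and 15.3 CPM in the control libraries and at 1.17, 1.17 and 1.30 CPM in the CD libraries, from 278, 205 and 277 reads and 19, 19 and 18 reads, respectively. The CD libraries were almost equal, and all were far below the control libraries. The log2 fold change was -3.78 ± 0.22 (SE; 95% interval -4.27 to -3.28; FDR 1.13e-06, edgeR), the lowest value of the 10 genes, and it lay between -3.86 and -3.63 with 1 library left out.

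E2F7 was at 11.4, 12.3 and 10.5 CPM in the control libraries and at 20.6, 18.1 and 6.63 CPM in the CD libraries. CD replicates 1 and 2 were above every control library, and CD replicate 3 was below every control library. Accordingly, the log2 fold change of 0.42 ± 0.34 (SE) was not called (95% interval -0.34 to 1.18; FDR 0.339, edgeR). Without CD replicate 3 the log2 fold change was 0.73 and was called (FDR 1.54e-04, edgeR), whereas without CD replicate 1 it was 0.14 (FDR 0.753, edgeR). The call on E2F7 thus depends on 1 library.

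The distance of CD replicate 3 from the other CD libraries was wide for E2F7. Its level there was 2.92-fold below the mean of CD replicates 1 and 2, and 98.8% of the tested genes had a smaller gap on the log2 scale. For E2F2 the gap was 1.69-fold and 86.0% of the genes had a smaller one, while 49.3% had a smaller gap than E2F5 and 57.1% a smaller one than E2F6. For E2F1, E2F3, E2F4, E2F8, TFDP1 and TFDP2 this share was 5.38% to 25.7%. Reads that fell on no gene made up 41.4% of CD replicate 3, against 31.1% and 31.8% of CD replicates 1 and 2, and 29.3% to 47.2% of the control libraries. The part of this difference in the low value of E2F7 was not tested.

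The reads on E2F7 for each read on E2F8 numbered 0.572, 0.829 and 0.686 in the control libraries and 17.7, 15.5 and 5.11 in the CD libraries. Even in CD replicate 3, where E2F7 was lowest, this ratio was above that of every control library. The pair is the whole of its class, and the ratio has no test of its own.

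**Figure D2:**
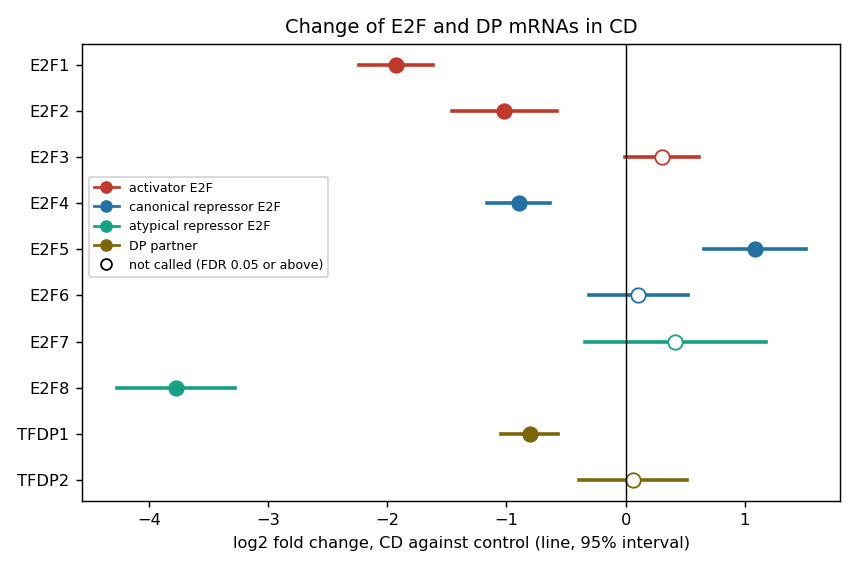
Log2 fold change of each gene in CD against control (x axis) with its 95% interval from the edgeR standard error (lines), colored by role; filled points were called at an FDR under 0.05 and open points were not. E2F8 (-3.78) and E2F1 (-1.93) lie farthest to the left, E2F5 (1.09) is the only filled point to the right, and the interval of E2F7 is the widest, from -0.34 to 1.18.

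Of the DP partners, TFDP1 (DP1), the common partner of the E2Fs in most cell types, was at 115, 117 and 129 CPM in the control libraries and at 67.2, 69.5 and 69.9 CPM in the CD libraries. The groups were far apart compared with the spread within them. TFDP1 fell 1.75-fold (log2 fold change -0.81 ± 0.11, SE; FDR 2.01e-04, edgeR).

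TFDP2 (DP2) was at 8.96, 7.37 and 7.27 CPM in the control libraries and at 10.0, 6.99 and 7.56 CPM in the CD libraries. These values overlapped, and the log2 fold change was 0.061 (95% interval -0.39 to 0.51; FDR 0.824, edgeR). The reads on TFDP2 for each read on TFDP1 numbered 0.0565 to 0.0777 in the control and 0.101 to 0.149 in the CD libraries.

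The balance of the classes was followed as the sum of reads on the activators divided by that on all repressors in each library. This ratio was 1.38, 1.21 and 1.34 in control libraries but 0.823, 0.870 and 0.810 in CD libraries, so that no CD library reached the lowest control library. The means were 1.31 ± 0.0861 and 0.834 ± 0.0314 (SD, n = 3 each). With E2F7 and E2F8 left out of the repressors, the means were 1.76 ± 0.151 in the control and 1.06 ± 0.126 in the CD group. Each gene enters these sums with the weight of its reads, and the ratio was not tested because it is a score over the chosen genes.

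**Figure D3:**
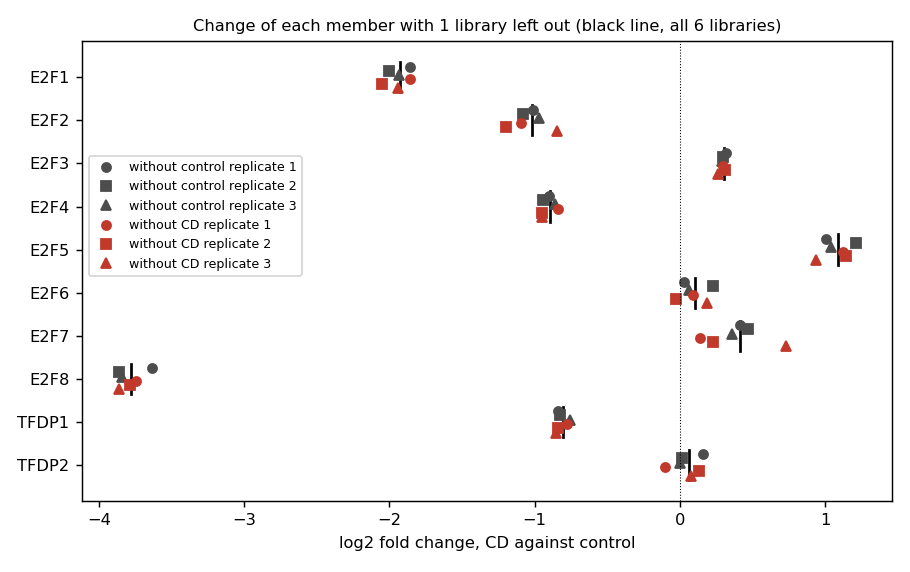
Log2 fold change of each gene in CD against control (x axis) in edgeR with 1 library left out, in grey for a control and in red for a CD library, with replicates 1 to 3 as circle, square and triangle and the value from all libraries as a black line. The values of E2F1 and E2F8 keep far from 0, and the value of E2F7 moves between 0.14 and 0.73 with the CD library that is left out.

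The partners of the E2Fs were examined next. RB1 (pRB) was at 9.10, 7.01 and 7.11 CPM in the control libraries and at 20.6, 13.4 and 9.29 CPM in the CD libraries. The CD values were all higher but wide apart, and the log2 fold change was 0.90 ± 0.28 (SE; FDR 0.0219, edgeR). The call was lost without control replicate 2 (FDR 0.0869), control replicate 3 (FDR 0.0905) or CD replicate 1 (FDR 0.0543), and without CD replicate 1 the log2 fold change was 0.57.

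RBL2 (p130), the pocket protein that accumulates in resting cells, rose from 23.9, 23.8 and 19.7 CPM to 68.9, 47.4 and 33.4 CPM. No CD library was as low as a control library, and the log2 fold change was 1.15 ± 0.24 (SE; FDR 0.00274, edgeR). The row named RBL1 (p107) held 0 counts in every library. Whether this reflects the expression of p107 or the annotation of the gene in the assembly was not tested, so the 0 gives no limit on its level.

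Of the MuvB proteins, which join p130 and E2F4 in the DREAM complex that silences cell cycle genes in G0, LIN9, LIN37 and LIN54 could be tested. LIN9 fell by 1.09 ± 0.26 (SE; FDR 0.00611, edgeR) on the log2 scale, from 6.98 ± 0.792 to 3.26 ± 1.10 CPM (SD, n = 3 each). LIN37 had a log2 fold change of -0.40 (FDR 0.0547) and LIN54 one of -0.15 (FDR 0.614), and neither was called, although LIN37 passed without CD replicate 3 and the value of LIN54 then was 0.011. LIN52, RBBP4 and MYBL2 were not matched by symbol and were not analysed here.

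Of 9 partners of E2F6 in PRC1.6, 6 were found by symbol and 5 were tested. MGA was found but had 0 to 5 reads in each library, too few for a test. Among the 5 tested partners, 3 were higher and 1 lower, beside 24.8% and 22.9% of all genes. RYBP, a subunit of the complex, rose with a log2 fold change of 1.20 (FDR 5.82e-04, edgeR), and YAF2 and PCGF6 rose by 0.76 (FDR 0.0262) and 0.49 (FDR 0.0441). L3MBTL2 fell from 224 ± 10.9 to 119 ± 7.62 CPM (SD, n = 3 each), by 0.91 on the log2 scale (FDR 9.35e-05, edgeR), and RNF2 was not called (log2 fold change 0.22, FDR 0.445). Only RYBP of the 3 higher genes was called with each library left out, since PCGF6 and YAF2 were not called without control replicate 1 (FDR 0.170 and 0.116) or control replicate 3 (FDR 0.151 and 0.0890). PCGF6 was also not called without CD replicate 1 (FDR 0.0996) or control replicate 2 (FDR 0.0501), nor with total counts as the scaling (FDR 0.0599) or with no filter on low counts (FDR 0.0513).

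Upstream, of 16 listed G1 cyclins, kinases and inhibitors, 11 were found by symbol and tested. D cyclins and kinase inhibitors were among those not matched. Of the 11 tested genes, 4 were higher and 7 lower, beside 24.8% and 22.9% of all genes. Their median log2 fold change was -0.88, against 0.057 for all genes tested. This median pools genes that moved in both directions and depends on how many of each kind were found. The 4 higher genes were the kinase inhibitors CDKN2B (log2 fold change 1.36), CDKN1B (0.86), CDKN2D (0.49) and CDKN1A (0.44). Without control replicate 1, 2 or 3 or without CD replicate 2, 3 genes of the list were called higher and 6 lower. The 7 lower genes were cyclins, kinases and the phosphatase CDC25A, and CCNE2 (-3.83), CCNE1 (-1.64) and CDK2 (-1.57) fell most. CCNE2 had 56, 58 and 73 reads in the control and 7, 4 and 2 reads in the CD libraries. The size of its decrease is therefore limited by depth. CCNE1 and CCNE2 encode E cyclins, the partners of CDK2 at the entry into S phase and themselves E2F targets. CCNE1 went from 21.7 ± 2.47 to 6.96 ± 0.521 CPM (SD, n = 3 each; FDR 3.88e-05, edgeR).

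Downstream, the E2F target genes of the G1/S transition were examined. Of 47 genes listed as G1/S targets of E2F, 38 were found by symbol, all of them were tested and all 38 were lower, beside 22.9% of all genes. Their median log2 fold change was -2.35, and the range was from -4.60 to -0.45. The groups did not overlap for any of the 38 genes, while 58.0% of all tested genes had no overlap. All 38 were called lower in each of 16 alternative settings. This list was drawn up with earlier results of these libraries known, and the count is a description of the list.

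The strongest decreases of this list belonged to POLE, CDC6 and CDT1. POLE, the catalytic subunit of DNA polymerase ε, was at 125, 124 and 141 CPM in the control and at 6.94, 5.64 and 3.39 CPM in the CD libraries (log2 fold change -4.60 ± 0.23, SE; FDR 4.17e-07, edgeR). CDC6 and CDT1, which load the MCM helicase onto origins, had log2 fold changes of -4.49 (FDR 2.10e-06) and -3.96 (FDR 2.79e-07). The decrease was smallest for RRM1 (-0.45, FDR 0.00429) and DUT (-0.77, FDR 0.00376), which encode the large subunit of ribonucleotide reductase and the dUTPase.

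The genes of G2 and M phase, which are driven by MuvB complexes and FOXM1 rather than by activator E2Fs alone, followed the same direction. Of 34 listed, 29 were tested and all 29 were lower, beside 22.9% of all genes, and their median log2 fold change was -2.02. The values went from -2.92 for the mitotic kinase gene PLK1 (FDR 1.48e-07, edgeR), -2.79 for CDC20 and -2.63 for AURKB to -1.29 for PRC1, -1.01 for CKAP2 and -0.36 for AURKA (FDR 0.0238, edgeR). The number called was 28 or 29 in each of 16 alternative settings.

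**Figure D4:**
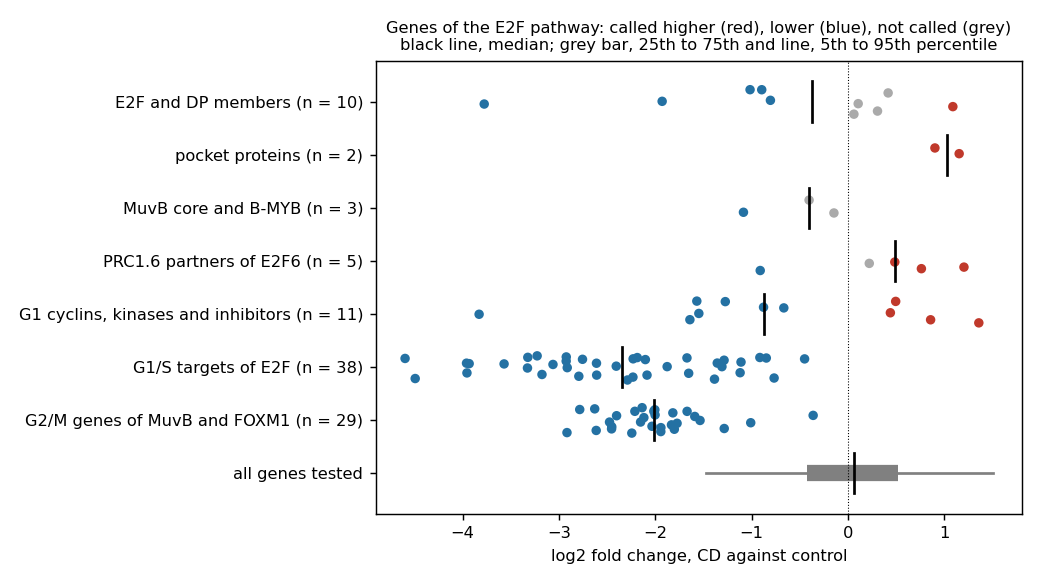
Log2 fold changes in CD against control (x axis) of the tested genes of each list (points; red, called higher; blue, called lower; grey, not called), with the median of each list as a black line, and the distribution of all genes tested at the bottom (5th to 95th percentile, line; 25th to 75th, bar). The G1/S and G2/M genes all lie to the left of 0, with medians of -2.35 and -2.02, whereas the E2F and DP genes lie on both sides.

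The targets were also averaged in each library. The mean log2 CPM of the 38 G1/S targets was 6.08, 6.16 and 6.13 in the control libraries and 3.75, 3.69 and 3.70 in the CD libraries. The CD libraries were close in this mean, but single targets differed between them in either direction. In CD replicate 3, POLE was lower than in the other CD libraries (values above), whereas CDC6 was at 1.22 CPM there and at 0.430 and 0.736 CPM in CD replicates 1 and 2. These CDC6 values rest on few reads, 17, 7 and 12, respectively. For the 29 G2/M genes the means were 6.20, 6.16 and 6.11 in control libraries, against 4.19, 4.04 and 4.17 in the CD libraries.

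Genes whose pattern over the 6 libraries was closest to that of E2F5 and E2F8 were searched among 9978 tested genes with a symbol outside the lists, by the root mean square difference of centered log2 CPM. For E2F5 these were AP3S1 (difference 0.036), STRADB (0.050) and SRI (0.051), with log2 fold changes of 1.05, 1.14 and 1.03. For E2F8 they were TCF19 (0.20), IHH (0.22) and LINGO1 (0.24), with log2 fold changes of -3.72, -3.70 and -3.81. The distance counts differences between and within the groups alike, and the names say nothing of shared function.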

How the data were processed

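Libraries were made from poly(A) RNA with Nextera XT, per the labels. The authors trimmed the reads with fastp 0.20.1, aligned them to the mink assembly NNQGG.v01 with STAR 2.7.2a and worked in R 4.0.3 with DESeq2 1.30.1. The deposited table holds raw counts per gene. The counting program and its use of strand are not given in the sources used here, and Nextera XT libraries carry no strand mark, so overlapping, antisense and near-identical genes are uncertain. The deposited normalized values of the same libraries were not used here. The table also has 4 lines of totals for reads on no gene (29.3% to 47.2% of the reads of a library), which stayed out of library sizes and tests.

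Groups and replicate numbers came from the sample titles. Differential expression was tested in R 4.3.3 with edgeR 4.0.16: filterByExpr (minimum count 10, minimum total 15), TMM scaling, glmQLFit (robust) and glmQLFTest over all 6 libraries with the condition as the only term, and Benjamini-Hochberg adjustment over all 12148 genes tested. The standard error is the size of the log2 fold change divided by the square root of F, and its median over genes was 0.18. The script was tested on simulated data. Replicates differed by more than sampling noise, with a median chi-square per gene of at least 1.35 between libraries of a group.

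Alternatives were DESeq2 1.42.0, limma-voom (limma 3.58.1) without and with group weights, other scalings, other filters, each library left out in turn, an FDR of 0.01, and a block for replicate number. Same-numbered control and CD libraries did not deviate together (correlations across genes of -0.028, -0.29 and -0.18), so no pairing was assumed.

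The genes, roles and lists were chosen with earlier results of these data known. All 10 family genes, pocket proteins and MuvB proteins are named, as are the called PRC1.6 partners, the 3 highest and 3 lowest of each other list, and the 3 nearest patterns for the highest and the lowest family gene. A list of E2F-responsive apoptosis genes and some genes of other lists are not reported here, so the target lists given do not stand for all E2F targets. RNF2, MGA, CDKN1A and CDC25A were named after their values were seen. Comparisons of promoter and protein sequences were planned but not made here.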

Additional observations from a re-analysis of the deposited data

How the results depend on the processing

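The 6 calls among the E2F and DP genes (5 lower, 1 higher) held in all 15 alternative settings for single genes, and also at an FDR of 0.01. Over these settings the log2 fold change lay between -2.05 and -1.86 for E2F1, between -1.20 and -0.84 for E2F2, between -0.95 and -0.84 for E2F4, between 0.94 and 1.21 for E2F5, between -3.86 and -3.63 for E2F8, and between -0.85 and -0.76 for TFDP1. The one change of call was that of E2F7, which was called higher without CD replicate 3, so that with 1 library left out the number of higher genes went from 1 to 2 in the family and among the repressors, and from 0 to 1 among the atypical repressors. The sign changed for genes that were not called, E2F6 (from -0.028 without CD replicate 2 to 0.22 without control replicate 2) and TFDP2 (from -0.0995 without CD replicate 1 to 0.16 without control replicate 1). With the replicate number as a block, 1 family gene was called higher and 5 lower, and 2772 and 2636 genes in all, and PCGF6 was not called (FDR 0.0828, edgeR). An FDR of 0.01 left 2006 higher genes of 3016, 1 higher pocket protein and 1 higher PRC1.6 partner, and 3 higher and 6 lower G1 regulators, without CDKN2D (FDR 0.0248, edgeR) and CDK6 (FDR 0.0374, edgeR). With total counts as the scaling, 6 G1 regulators were lower. With 1 library left out, the higher pocket proteins numbered 1 to 2, the higher PRC1.6 partners 1 to 3 and the lower MuvB genes 1 to 2. DESeq2, limma-voom, limma-voom with group weights and edgeR without scaling factors each called 2 lower MuvB genes, the second being LIN37. Without E2F7 and E2F8 the ratio of activator to repressor reads was 1.76 in the control and 1.06 in CD. Other scalings kept the median log2 fold change of all genes between 0.037 and 0.090. The cause of these changes was not tested. E2F8, with 18 or 19 reads in each CD library, is the family gene whose CD level is most limited by depth.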

Other observations

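Germline targets of the E2F network were also measured. A list held 6 germline genes described as silenced by E2F6 and PRC1.6 in somatic cells. Of these, 3 had too few reads for a test (SMC1B, MAEL and DDX4). STAG3, a meiotic cohesin subunit, was nonetheless at 149 ± 11.8 CPM in the control and 24.1 ± 3.12 CPM in the CD libraries (SD, n = 3 each; log2 fold change -2.62, FDR 6.25e-07, edgeR). TAF7L fell from 4.60 ± 0.962 to 1.79 ± 0.170 CPM (log2 fold change -1.35, FDR 0.00107, edgeR), and SLC25A31 was not called (log2 fold change -0.34, FDR 0.392). The level of E2F6 itself overlapped between the groups, and its part in these values was not tested.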
